A study of Drosophila melanogaster with 12 samples.

Results

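The interaction of TDP-43 expression with knockdown of Atx2 was measured in fly brains, as the TDP-43 change with an Atx2 hairpin minus the TDP-43 change with a control hairpin. It used all 12 of the 12 libraries of the series, 3 in each of 4 groups, and was tested in 10738 of the 17562 genes of the count table, which were those with enough counts. The groups were TDP-43 with Atx2 RNAi, control with Atx2 RNAi, TDP-43 with mCherry RNAi and control with mCherry RNAi. In every group the daughterless-GeneSwitch driver (DaGS), a driver for nearly all cells that acts when flies eat RU486, drove an RNA hairpin. The hairpin was against Atx2 (stock BL44012) or against mCherry (stock BL35785), a red fluorescent protein from corals that serves as a control target. The TDP-43 groups also carried the transgene named TDP(52s) in the labels, and the control groups did not. All 4 groups were therefore exposed to RU486 and to a hairpin, and no group was without both. Crosses were kept at 25 °C, the flies were males collected 1 to 2 days after eclosion, and brains were taken after 6 days of RU486. RNA went through a stranded polyA kit and was read in pairs of 150 bases, to a planned depth of 40 M reads. The labels call the 3 libraries of a group biological replicates and give no batch, day or number of brains pooled. A TDP-43 effect and any effect of the genetic background that came with the transgene cannot be told apart. The same holds for Atx2 knockdown and the background of its hairpin stock, since the hairpins came from different stocks. The interaction carries both limits.

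TDP-43 is an RNA-binding protein of the nucleus that controls splicing and RNA stability, and in amyotrophic lateral sclerosis and frontotemporal dementia it leaves the nucleus and forms aggregates. Atx2, the fly ataxin-2, is a cytoplasmic RNA-binding protein of RNA granules that acts in translation and in the daily clock, and lowering it is known to reduce the toxicity of TDP-43 in flies and other models. The title of the series states that TDP-43 disturbs sleep and that less Atx2 reverses this. An interaction asks for each transcript whether its change with TDP-43 was different once Atx2 was knocked down, which a separate test under each hairpin does not answer.

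Levels are CPM, read counts scaled to the library's normalized total, and are listed for replicates 1, 2 and 3 of each group. They are not scaled to gene length and are not compared between genes. Effects are given as log2 fold change ± standard error. That error is the absolute log2 change divided by the square root of the F statistic of edgeR's test, so it is not independent of the p-value. A positive interaction means that the level moved further up, or less far down, with TDP-43 when Atx2 was knocked down. A gene was called at a Benjamini-Hochberg adjusted p under 0.05 from edgeR's quasi-likelihood test over all genes tested, and every adjusted p below is from that test unless another tool is named. Since nothing more is said of how replicates were raised, p-values reflect the variation among libraries that carry 1 label, part of which may be technical. Bulk tissue was sequenced, so fewer cells of a type and less RNA per cell cannot be told apart. The counting method and its strand setting are not stated in any source used here, so reads of antisense pairs, of overlapping genes and of near-identical family members may stand under either gene.

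The hairpin's target was checked first. Atx2 (3R, 15408423 to 15417277) stood at 144, 163 and 155 CPM in TDP-43 brains and 152, 165 and 162 in control brains with Atx2 RNAi. With mCherry RNAi, Atx2 had 267, 304 and 289 CPM in TDP-43 brains and 363, 343 and 345 in control brains. Every library with the Atx2 hairpin was below every library with the mCherry hairpin. The log2 change was -0.89 ± 0.06 with TDP-43 (adjusted p = 5.34e-06) and -1.13 ± 0.06 without it (adjusted p = 1.33e-06), and the interaction for Atx2 itself was not called (0.24 ± 0.08, adjusted p = 0.211). The fly's own TDP-43 gene, TBPH (2R, 23859067 to 23862593), was lower in every TDP-43 library than in the control libraries under both hairpins. Its log2 change was -0.84 ± 0.06 with Atx2 RNAi and -0.98 ± 0.06 with mCherry RNAi, and its interaction was not called either (0.14 ± 0.08, adjusted p = 0.432). The transcript of the transgene was not analysed here. The eye colour gene w, a common marker on fly transgenes, averaged 2046 ± 53 CPM in TDP-43 brains and 13.2 ± 1.65 in control brains with Atx2 RNAi, and 2199 ± 194 in TDP-43 brains and 10.5 ± 0.693 in control brains with mCherry RNAi (SD, n = 3 each), so all 6 TDP-43 libraries carried a w signal that the controls lacked, and its interaction was not called (-0.43 ± 0.12, adjusted p = 0.141). For the markers v and y the interaction was -0.54 ± 0.39, adjusted p = 0.571, and -1.41 ± 0.48, adjusted p = 0.22.

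Library totals ran from 29184618 to 45104293 counts and overlapped between the groups. The 4 neuron markers elav, nSyb, brp and Syt1 summed to 5393 to 5578 CPM in TDP-43 brains with Atx2 RNAi, 5309 to 5692 in control brains with Atx2 RNAi, 5481 to 5737 in TDP-43 brains with mCherry RNAi and 5799.9 to 6064 in control brains with mCherry RNAi. The 4 glia markers repo, nrv2, moody and alrm summed to 1275 to 1352 CPM in TDP-43 brains and 1526 to 1580 in control brains with Atx2 RNAi, and to 1233 to 1359 in TDP-43 brains and 1555 to 1825 in control brains with mCherry RNAi. Their sum was thus below the controls in every TDP-43 library under both hairpins, but its members differed. Mean nrv2 was 825 CPM in TDP-43 and 1047 in control brains with Atx2 RNAi, and 810 and 1155 with mCherry RNAi. Mean alrm was likewise lower with TDP-43 under both hairpins. Mean moody was higher, at 144 against 96.1 CPM with Atx2 RNAi and 147 against 110 with mCherry RNAi. Mean repo was higher with TDP-43 under Atx2 RNAi and lower under mCherry RNAi. Fat body markers (apolpp, Lsp2, Yp1 and Fbp1) summed to 1863 to 3499 CPM in TDP-43 brains with Atx2 RNAi, 1362 to 1603 in control brains with Atx2 RNAi, 1996 to 7050 in TDP-43 brains with mCherry RNAi and 1394 to 2816 in control brains with mCherry RNAi. Gut markers summed to 0.123 to 122 CPM in TDP-43 brains with Atx2 RNAi, 0.262 to 23.2 in control brains with Atx2 RNAi, 1.38 to 267 in TDP-43 brains with mCherry RNAi and 0.0663 to 0.357 in control brains with mCherry RNAi. None of the listed neuron, glia, fat body or gut markers was at 0 in all libraries. The yolk protein gene Yp1, a product of the female fat body, stood at 1394, 470.1 and 855 CPM in TDP-43 brains and 0.523, 7.62 and 5.91 in control brains with Atx2 RNAi. With mCherry RNAi, Yp1 had 844, 2615 and 3735 CPM in TDP-43 brains and 2.25, 1.64 and 0.994 in control brains, while lncRNA:roX1, an RNA of male flies, stood between 4209.9 and 5483 CPM in the 12 libraries. Replicates of TDP-43 brains with mCherry RNAi also differed most among themselves, with a chi-square per degree of freedom of 95.1 to 161 between pairs, against 17.2 to 59.0 for pairs within the other groups. The part of these tissue markers in any result below was not tested.

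The TDP-43 change differed between the hairpins for 46 genes, 28 with a positive and 18 with a negative interaction, which is 0.428% of the genes tested (0.261% positive and 0.168% negative). At an unadjusted p under 0.05 there were 1636 genes (15.2%), 887 positive (8.26%) and 749 negative (6.98%). The count was 10 to 74 with a library left out, and DESeq2's Wald test called 506 genes, 33 of them among the 46. The called genes included 5 antisense RNAs, 3 genes of the glia list, 2 UDP-glycosyltransferases and a glutathione transferase. Their median absolute interaction was 0.70, against 0.17 for all tested genes, and 19 exceeded 1. For 29 of the 46 the TDP-43 change had the same sign under both hairpins and was smaller with Atx2 RNAi, for 6 it was larger with Atx2 RNAi, and for 11 the fitted signs differed. The shares of these patterns over all tested genes were not counted. Of the 4792 genes called for the average of both TDP-43 changes, 70.8% had a smaller absolute change with Atx2 RNAi, whatever its sign.

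TDP-43 brains with mCherry RNAi stood apart from the other 3 groups for 29 of the 46 genes, 10 higher and 19 lower, where the group that stands apart is the one whose removal leaves the other 3 group means closest together on the log2 scale. That group stood apart for 41.4% of all tested genes. TDP-43 brains with Atx2 RNAi stood apart for 6 called genes (17.4% of tested genes), control brains with Atx2 RNAi for 5 (18.6%) and control brains with mCherry RNAi for 6 (22.6%). The 46 calls did not all rest on the same support: 10 held with each of the 12 libraries left out in turn, and 2 were lost in each of these 12 fits. The calls lost without replicates 1, 2 and 3 were 14, 36 and 32 for TDP-43 brains with Atx2 RNAi and 26, 21 and 26 for control brains with Atx2 RNAi. For TDP-43 brains with mCherry RNAi they were 6, 22 and 13, and for control brains with mCherry RNAi 27, 31 and 5.

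**Figure D1:**
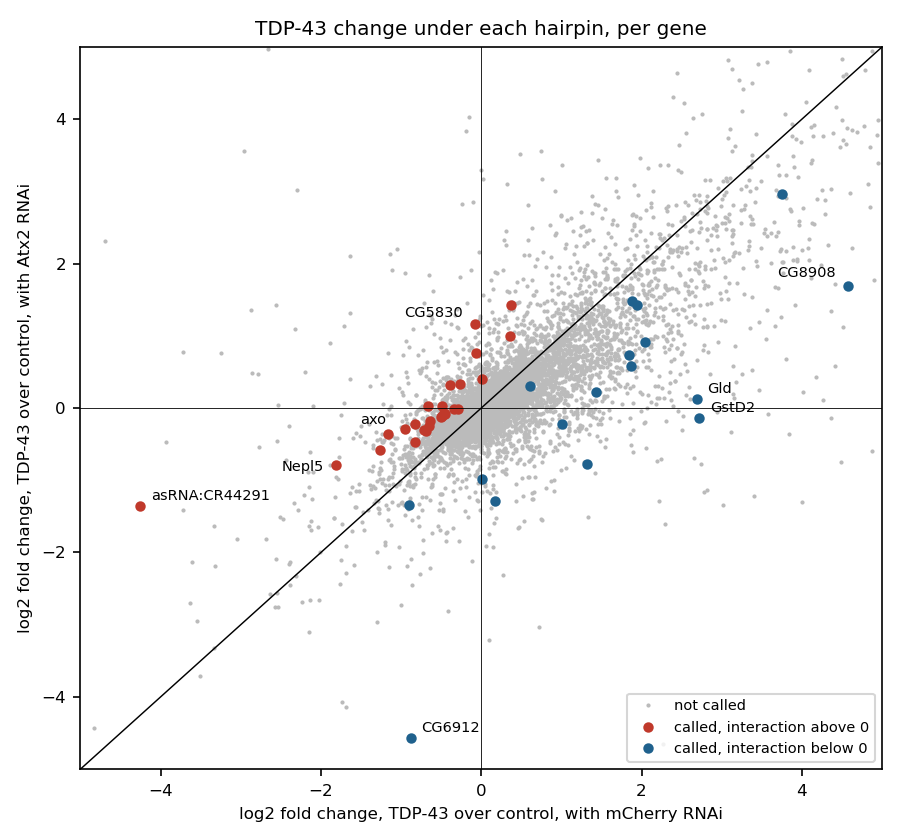
Each point is 1 of the genes tested, with the TDP-43 log2 fold change under Atx2 RNAi on the vertical axis and under mCherry RNAi on the horizontal axis; the diagonal marks equal change. Called genes with a positive interaction (red) lie above the diagonal and those with a negative one (blue) below it, and 170 genes, 3 of them called, lie outside the window of 5 log2 units either way.

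**Figure D2:**
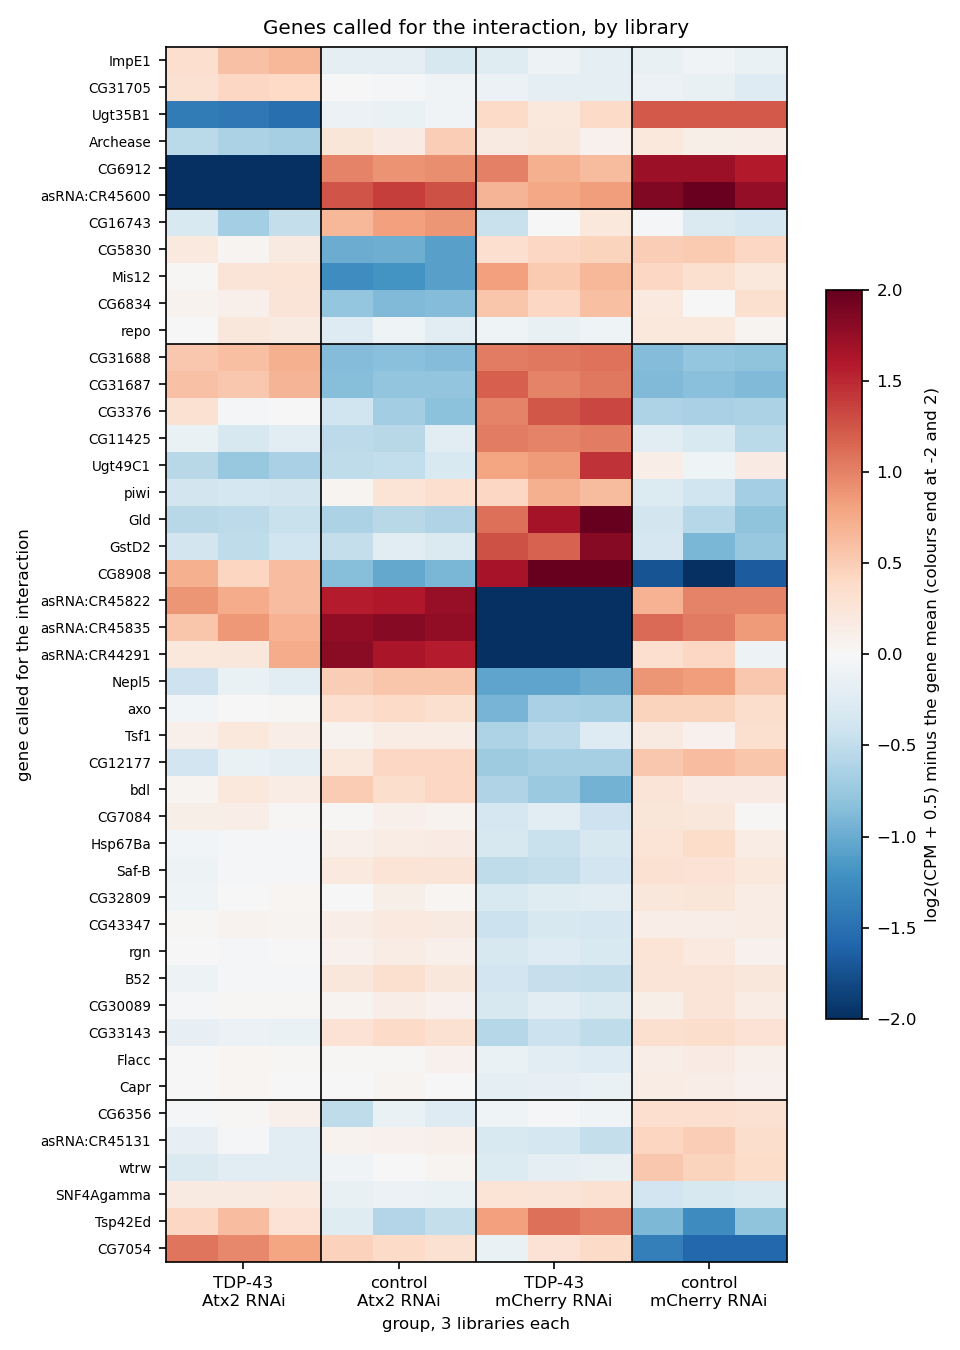
Each row is 1 of 45 called genes and each column 1 library, with 3 libraries per group; colour gives log2(CPM + 0.5) minus the gene's mean, red high and blue low. Horizontal lines separate the genes by the group that stands apart, from top to bottom 6 genes for TDP-43 with Atx2 RNAi, 5 for control with Atx2 RNAi, 28 for TDP-43 with mCherry RNAi and 6 for control with mCherry RNAi.

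The interaction with the smallest adjusted p belonged to a gene on chromosome arm 3R that, like its neighbour, was nearly silent in the combination of TDP-43 with Atx2 RNAi and in no other group. The antisense RNA gene asRNA:CR45600 (3R, 15136985 to 15140121, minus strand) stood at 2.75, 3.01 and 3.1 CPM in TDP-43 brains and 124, 135 and 126 in control brains with Atx2 RNAi. With mCherry RNAi, asRNA:CR45600 had 83.4, 88.6 and 93.3 CPM in TDP-43 brains and 188, 205 and 177 in control brains. All libraries of the combination were far below all others. The TDP-43 change was -5.44 ± 0.08 with Atx2 RNAi and -1.10 ± 0.06 with mCherry RNAi, and the change with the Atx2 hairpin alone was -0.56 ± 0.06. The interaction was -4.34 ± 0.10, adjusted p = 2.32e-10. The adjacent protein-coding gene CG6912 (3R, 15135138 to 15137004, minus strand) showed the same order, with 3.05, 2.42 and 2.92 CPM in TDP-43 brains and 68.7, 64.5 and 65.5 in control brains with Atx2 RNAi. With mCherry RNAi, CG6912 had 69.2, 56.5 and 53.5 CPM in TDP-43 brains and 113, 113 and 103.7 in control brains. Its TDP-43 change was -4.57 ± 0.11 with Atx2 RNAi and -0.88 ± 0.10 with mCherry RNAi, for an interaction of -3.69 ± 0.14, adjusted p = 4.39e-08. The annotated exons of these 2 genes overlap by 20 bases on the same strand, so their reads may be shared there. CG3984, which lies opposite asRNA:CR45600 and shares 1731 exon bases with it, was not called (1.23 ± 0.90, adjusted p = 0.576) and averaged 1.25 ± 0.674 CPM in TDP-43 brains and 1.57 ± 0.949 in control brains with Atx2 RNAi, and 0.672 ± 0.153 in TDP-43 brains and 1.99 ± 1.77 in control brains with mCherry RNAi (SD, n = 3 each). Each factor alone also lowered both genes, and the calls are statements about ratios: taken as a difference of CPM differences, limma called the interaction neither for asRNA:CR45600 (-24.1 CPM, limma adjusted p = 0.216) nor for CG6912 (-13 CPM, limma adjusted p = 0.296).

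Another pair of neighbours, on 3L, was nearly silent in TDP-43 brains with mCherry RNAi and present in the other 3 groups. The antisense RNA gene asRNA:CR45822 (3L, 7355717 to 7356598, plus strand) stood at 8.7, 7.83 and 7.17 CPM in TDP-43 brains with Atx2 RNAi, 14.3, 14.6 and 16.1 in control brains with Atx2 RNAi, 0.0215, 0 and 0.0284 in TDP-43 brains with mCherry RNAi and 7.56, 9.37 and 9.41 in control brains with mCherry RNAi. A further antisense RNA gene 5040 bases away, asRNA:CR45835 (3L, 7361639 to 7363598, minus strand), had 9.04, 11.4 and 10.04 CPM in TDP-43 brains with Atx2 RNAi, 21.9, 22.4 and 21.9 in control brains with Atx2 RNAi, 0.043, 0.0928 and 0.0852 in TDP-43 brains with mCherry RNAi and 13.9, 13 and 11.3 in control brains with mCherry RNAi. TDP-43 brains with mCherry RNAi were thus at or under 3 counts per library for both (0.0645 to 0.104 CPM, counting error only), so no fold against that group is given. In TDP-43 brains the Atx2 hairpin went with a level of 7.9 CPM for asRNA:CR45822 and 10.2 CPM for asRNA:CR45835 on average, with no overlap between the hairpins. Both interactions were called (adjusted p = 1.39e-07 and 4.15e-08). The Atx2 hairpin also raised asRNA:CR45822 and asRNA:CR45835 without TDP-43, by 0.77 ± 0.16 and 0.80 ± 0.13, and TDP-43 lowered them on the Atx2 hairpin, with log2 changes of -0.93 ± 0.16 and -1.12 ± 0.13. On linear CPM the interaction was 1.65 for asRNA:CR45822 (limma adjusted p = 0.45) and 0.704 for asRNA:CR45835 (limma adjusted p = 0.821), so the calls rest on ratios and not on CPM differences. The protein-coding genes on the opposite strand were measured too: CTCF, an insulator-binding protein that shares 700 exon bases with asRNA:CR45822, had an interaction of 0.05 ± 0.07, adjusted p = 0.775, and Sec63, a factor of protein entry into the endoplasmic reticulum that shares 1787 exon bases with asRNA:CR45835, one of 0.09 ± 0.08, adjusted p = 0.654.

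A similar level pattern, with weaker support, held for asRNA:CR44291 (3R, 8562828 to 8563798), at 3.3, 3.35 and 4.95 CPM in TDP-43 brains and 10.9, 9.6 and 9.27 in control brains with Atx2 RNAi. With mCherry RNAi, asRNA:CR44291 had 0.0645, 0.217 and 0.256 CPM in TDP-43 brains and 3.61, 3.88 and 2.55 in control brains. It was lowest in every library of TDP-43 brains with mCherry RNAi and highest in every control library with Atx2 RNAi, with an interaction of 2.89 ± 0.47, adjusted p = 0.0215. Its call was kept in 5 of 12 fits with a library left out (adjusted p up to 0.0811), and on linear CPM its sign turned (-2.9 CPM, limma adjusted p = 0.14). It was not called by limma-voom (adjusted p = 0.0888). In TDP-43 brains with mCherry RNAi, replicate 1 held 3 counts (0.0645 CPM), so the size of this fold rests on low counts. In all, 5 of 191 tested genes annotated as antisense RNAs were called (2.62%), against 0.428% of all genes. The fifth, asRNA:CR45131 (0.60 ± 0.10), lies outside the rule for named genes and was singled out after its values were seen.

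In 19 called genes TDP-43 brains with mCherry RNAi stood apart as the lowest group, among them axo and Tsf1 of the glia list. The axotactin gene axo (3L, 4629604 to 4687317), which encodes a glial protein secreted along axons, stood at 288, 296 and 303 CPM in TDP-43 brains and 378, 389 and 371 in control brains with Atx2 RNAi. With mCherry RNAi, axo had 156, 189.9 and 188 CPM in TDP-43 brains and 406, 406 and 379.8 in control brains. The TDP-43 libraries were below their controls under both hairpins, with log2 changes of -0.36 ± 0.07 with Atx2 RNAi and -1.16 ± 0.07 with mCherry RNAi, and the interaction was 0.80 ± 0.09, adjusted p = 0.0039. Nepl5 (2L, 6381266 to 6383419), a neprilysin-like peptidase gene, had 92.4, 112 and 105 CPM in TDP-43 brains and 173, 181 and 179.7 in control brains with Atx2 RNAi. With mCherry RNAi, Nepl5 had 58.8, 58.6 and 61.5 CPM in TDP-43 brains and 227, 219.9 and 179 in control brains. Its TDP-43 fall was likewise smaller with Atx2 RNAi (-0.79 ± 0.09) than with mCherry RNAi (-1.81 ± 0.09), with an interaction of 1.02 ± 0.12, adjusted p = 0.00419, although on linear CPM it was not called (limma adjusted p = 0.0573). Both calls held with each library left out, at an adjusted p of at most 0.0246 and 0.0246. The transferrin gene Tsf1 (X, 18387084 to 18390344), an iron carrier of fat body and glia, had 1699, 1840.5 and 1742 CPM in TDP-43 brains with Atx2 RNAi, 1671, 1754 and 1768 in control brains with Atx2 RNAi, 1037, 1101 and 1329 in TDP-43 brains with mCherry RNAi and 1807, 1692 and 1989 in control brains with mCherry RNAi. Only the TDP-43 libraries with mCherry RNAi were low (0.69 ± 0.12, adjusted p = 0.0327), yet the call was kept in only 3 of 12 fits with a library left out (adjusted p up to 0.113). The immunoglobulin-family gene bdl, which acts in glia of the eye disc, averaged 252 ± 14.4 CPM in TDP-43 brains and 308 ± 16.1 in control brains with Atx2 RNAi, and 135 ± 16.6 in TDP-43 brains and 262 ± 9.82 in control brains with mCherry RNAi (SD, n = 3 each). Its TDP-43 libraries with mCherry RNAi lay below all others, and its interaction of 0.67 ± 0.11, adjusted p = 0.027 was kept in 4 of 12 such fits (up to 0.0954). CG12177 averaged 37.2 ± 3.31 CPM in TDP-43 brains and 55.6 ± 4.58 in control brains with Atx2 RNAi, and 27 ± 0.533 in TDP-43 brains and 65 ± 2.15 in control brains with mCherry RNAi, with an interaction of 0.69 ± 0.10, adjusted p = 0.0163 that was kept in 9 of 12 (up to 0.0659). The small heat shock protein gene Hsp67Ba averaged 58.5 ± 0.834 CPM in TDP-43 brains and 66.4 ± 1.46 in control brains with Atx2 RNAi, and 46.6 ± 2.15 in TDP-43 brains and 72.3 ± 5.5 in control brains with mCherry RNAi, with an interaction of 0.45 ± 0.08, adjusted p = 0.0393 that was kept in 2 of 12 (up to 0.165). Its exons share 1316 bases with asRNA:CR43481 on the opposite strand.

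A further 4 called genes that the rule for named genes does not reach were singled out after their values were seen. They were Saf-B, a scaffold attachment factor (0.42 ± 0.07), B52, a splicing factor of the SR family (0.37 ± 0.06), Flacc, a subunit of the complex that writes N6-methyladenosine into mRNA (0.32 ± 0.06), and Capr, the fly caprin and a partner of Fmr1 (0.28 ± 0.05). For example B52 had 378, 395 and 398 CPM in TDP-43 brains and 477, 507 and 476 in control brains with Atx2 RNAi. With mCherry RNAi, B52 had 311, 296 and 292 CPM in TDP-43 brains and 486, 486 and 474 in control brains. The TDP-43 libraries with mCherry RNAi were lowest for each, and the TDP-43 fall was smaller with Atx2 RNAi for each. None of these calls held with every library left out: Saf-B was kept in 5, B52 in 5, Flacc in 2 and Capr in 1 of 12 fits, with an adjusted p of up to 0.0839, 0.0976, 0.165 and 0.199. Under the length offset described below, Saf-B stayed called (adjusted p = 0.0494), while B52 (0.0872), Flacc (0.196) and Capr (0.119) did not. By limma-voom, Saf-B (0.0232) and B52 (0.0255) were called, and Flacc (0.0663) and Capr (0.0701) were not.

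In the opposite direction, TDP-43 brains with mCherry RNAi stood apart as the highest group for 10 called genes. CG8908 (2R, 20264920 to 20270994), of the ABC transporter family, stood at 8.55, 6.93 and 7.95 CPM in TDP-43 brains and 2.54, 2.23 and 2.44 in control brains with Atx2 RNAi. With mCherry RNAi, CG8908 had 16.7, 26.8 and 32.8 CPM in TDP-43 brains and 1.16, 0.77 and 1.25 in control brains. TDP-43 raised it by 1.70 ± 0.23 with Atx2 RNAi and by 4.57 ± 0.26 with mCherry RNAi, and no TDP-43 library with Atx2 RNAi reached any with mCherry RNAi. The interaction of -2.88 ± 0.33, adjusted p = 0.0039 held with each library left out, at an adjusted p of at most 0.0246, but limma-voom (0.162) and limma on linear CPM (0.0843) gave adjusted p-values above 0.05. The glucose dehydrogenase gene Gld (3R, 7252063 to 7265703) had 1.48, 1.54 and 1.65 CPM in TDP-43 brains and 1.38, 1.5 and 1.43 in control brains with Atx2 RNAi. With mCherry RNAi, Gld had 5.76, 8.75 and 13.9 CPM in TDP-43 brains and 1.76, 1.47 and 1.17 in control brains, so that only TDP-43 libraries with the mCherry hairpin were raised (-2.57 ± 0.39, adjusted p = 0.0166). Within TDP-43 brains with mCherry RNAi both CG8908 and Gld were lowest in replicate 1 and highest in replicate 3, as was Yp1 of the fat body, and the part of fat body RNA in these calls was not tested. CG11425 (3L, 22474795 to 22475792), of the lipid phosphate phosphatase family, had 6.91, 6 and 6.48 CPM in TDP-43 brains and 5.16, 5.05 and 6.44 in control brains with Atx2 RNAi. With mCherry RNAi, CG11425 had 16.1, 15.7 and 15.9 CPM in TDP-43 brains and 6.47, 6.06 and 5.1 in control brains. Its TDP-43 libraries with mCherry RNAi were alike and above all others. Its interaction of -1.22 ± 0.17, adjusted p = 0.0135 was lost only without replicate 2 of TDP-43 with Atx2 RNAi (0.0645), while Gld was kept in 9 of 12 fits (up to 0.0659). For Gld, as for CG8908, limma-voom (0.188) and limma on linear CPM (0.126) gave adjusted p-values above 0.05. CG3376 (2R, 24258013 to 24265213), a gene of the acid sphingomyelinase family, averaged 53 ± 7.32 CPM in TDP-43 brains and 31.9 ± 4.9 in control brains with Atx2 RNAi, and 114 ± 14 in TDP-43 brains and 31.8 ± 0.449 in control brains with mCherry RNAi, with an interaction of -1.11 ± 0.18, adjusted p = 0.0253 kept in 6 of 12 (up to 0.0954).

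Detoxification genes were among the calls too. Ugt49C1 (2R, 21215435 to 21217779), a UDP-glycosyltransferase gene, had 15.4, 13.3 and 14.3 CPM in TDP-43 brains and 15.9, 16.1 and 18.4 in control brains with Atx2 RNAi. With mCherry RNAi, Ugt49C1 had 40.1, 41.5 and 63.5 CPM in TDP-43 brains and 25.1, 21.5 and 25.6 in control brains. Replicate 3 of TDP-43 with mCherry RNAi was the highest library, as it was for Yp1. The interaction was -1.23 ± 0.23, adjusted p = 0.0496, just under the threshold, and was kept in 2 of 12 fits (up to 0.202). GstD2, a glutathione transferase gene under the 5 CPM asked of named genes and singled out after its values were seen, had 0.957, 0.831 and 0.929 CPM in TDP-43 brains and 0.856, 1.11 and 1.04 in control brains with Atx2 RNAi. With mCherry RNAi, GstD2 had 4.04, 3.74 and 6.14 CPM in TDP-43 brains and 0.995, 0.502 and 0.612 in control brains. It was raised by TDP-43 only with the mCherry hairpin (-2.86 ± 0.41, adjusted p = 0.0137) and was kept in 10 of 12 fits (up to 0.0645). Ugt35B1 (3R, 11168503 to 11170246), another UDP-glycosyltransferase gene, behaved otherwise: it had 58, 56.7 and 54 CPM in TDP-43 brains and 142, 139.8 and 147 in control brains with Atx2 RNAi. With mCherry RNAi, Ugt35B1 had 200.4, 179 and 200.3 CPM in TDP-43 brains and 363, 361 and 363 in control brains. Each factor lowered it, and the combination was lowest in every library. The interaction in ratios was -0.44 ± 0.07, adjusted p = 0.0189, kept in 5 of 12 fits (up to 0.086), but in linear CPM TDP-43 took less from it with Atx2 RNAi, by 82.2 CPM (limma adjusted p = 0.00135), so its direction turns with the scale.

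For 5 called genes control brains with Atx2 RNAi stood apart by the rule above, 4 of which are described here. The rule names a group for every gene, and for repo these control libraries overlapped those of TDP-43 with mCherry RNAi. CG5830 (3L, 15992669 to 16004736) had 221, 201 and 218 CPM in TDP-43 brains and 96.7, 97.2 and 90.6 in control brains with Atx2 RNAi. With mCherry RNAi, CG5830 had 244, 256 and 262 CPM in TDP-43 brains and 271, 276 and 257 in control brains. The control libraries with Atx2 RNAi stood below all others, so that the hairpin's log2 change of CG5830 was -0.25 ± 0.05 with TDP-43 and -1.50 ± 0.05 without it, while TDP-43 with mCherry RNAi made no called difference (-0.08 ± 0.05, adjusted p = 0.241). The interaction of 1.25 ± 0.07, adjusted p = 1.92e-06 was called under each alternative tried and with each library left out (at most 2.21e-05). Mis12 (3L, 6968035 to 6969048), a kinetochore protein gene, stood at 14.8, 17.5 and 17.9 CPM in TDP-43 brains and 5.92, 6.09 and 6.61 in control brains with Atx2 RNAi. With mCherry RNAi, Mis12 had 26.3, 21.3 and 23.5 CPM in TDP-43 brains and 19.7, 18.5 and 17 in control brains. The Atx2 hairpin lowered it, by a log2 change of -0.50 ± 0.10 with TDP-43 and -1.57 ± 0.10 without it, and the interaction of 1.06 ± 0.14, adjusted p = 0.00953 held with each library left out (at most 0.0425). The glial transcription factor gene repo (3R, 18236192 to 18239602) had 130.0, 151 and 147 CPM in TDP-43 brains and 107, 122 and 109.9 in control brains with Atx2 RNAi. With mCherry RNAi, repo had 122, 116 and 121 CPM in TDP-43 brains and 149, 149 and 134 in control brains. TDP-43 brains were higher than controls with Atx2 RNAi (0.34 ± 0.07, adjusted p = 0.00346) and lower with mCherry RNAi (-0.26 ± 0.07, adjusted p = 0.00876). The Atx2 hairpin raised repo with TDP-43 (0.25 ± 0.07, adjusted p = 0.0277) and lowered it without TDP-43 (-0.35 ± 0.07, adjusted p = 0.0108). The interaction for repo was 0.60 ± 0.09, adjusted p = 0.0189, kept in 5 of 12 fits (up to 0.0814), and its exons share 183 bases with CG7156 on the opposite strand, which was not called. In the other direction CG16743 (2L, 10972280 to 10973408) had 45.1, 35 and 40.0 CPM in TDP-43 brains and 89.5, 100.1 and 103.5 in control brains with Atx2 RNAi. With mCherry RNAi, CG16743 had 41.1, 56.6 and 64.8 CPM in TDP-43 brains and 54.8, 46.1 and 43.9 in control brains. It was highest in every control library with Atx2 RNAi. Its interaction was -1.45 ± 0.23, adjusted p = 0.0284, kept in 4 of 12 fits (up to 0.108).

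In further genes the group that stood apart by the same rule was the combination, or the brains with neither. ImpE1 (3L, 8372405 to 8391171), first known as an ecdysone-inducible gene, had 47.2, 56.1 and 59 CPM in TDP-43 brains and 32.6, 33 and 29.8 in control brains with Atx2 RNAi. With mCherry RNAi, ImpE1 had 31.3, 34.5 and 32.5 CPM in TDP-43 brains and 33.6, 35.4 and 33.8 in control brains. Every library of the combination was above every other, neither factor alone changed it by a called amount (-0.06 ± 0.08, adjusted p = 0.553 for TDP-43 with mCherry RNAi, and -0.11 ± 0.08, adjusted p = 0.505 for the Atx2 hairpin without TDP-43), and the interaction of 0.83 ± 0.11, adjusted p = 0.00953 held with each library left out (at most 0.0438). Archease (3R, 21661186 to 21662972), a cofactor of tRNA ligation, was the mirror image, at 5.12, 4.75 and 4.62 CPM in TDP-43 brains and 9.16, 8.59 and 11 in control brains with Atx2 RNAi. With mCherry RNAi, Archease had 8.73, 9.06 and 8.15 CPM in TDP-43 brains and 8.95, 8.3 and 8.41 in control brains. The combination was lowest (-1.004 ± 0.15, adjusted p = 0.0163), with the call kept in 9 of 12 fits (up to 0.0659). CG7054 (3R, 22464985 to 22465938), of the phosphatidylethanolamine-binding protein family, was lowest in control brains with mCherry RNAi, with 18, 16.8 and 14.8 CPM in TDP-43 brains and 11.7, 11.1 and 10.4 in control brains with Atx2 RNAi. With mCherry RNAi, CG7054 had 7.57, 10.3 and 11 CPM in TDP-43 brains and 2.92, 2.48 and 2.47 in control brains. TDP-43 raised it by 0.58 ± 0.14 with Atx2 RNAi and 1.87 ± 0.14 with mCherry RNAi (-1.30 ± 0.20, adjusted p = 0.0163 for the interaction, kept in 8 of 12, up to 0.0659), and on linear CPM it was not called (-1.53 CPM, limma adjusted p = 0.68). The tetraspanin gene Tsp42Ed was also lowest in control brains with mCherry RNAi. It averaged 16.9 ± 2.03 CPM in TDP-43 brains and 9.01 ± 1.22 in control brains with Atx2 RNAi. Under mCherry RNAi it averaged 24.8 ± 2.48 in TDP-43 brains, its highest group, and 5.99 ± 1.01 in control brains (SD, n = 3 each). Its interaction was -1.14 ± 0.20, adjusted p = 0.0358, kept in 3 of 12 fits (up to 0.12). CG6356 (3R, 24283955 to 24288617), of the organic cation transporter family, had 178, 185 and 197 CPM in TDP-43 brains and 129, 167 and 153 in control brains with Atx2 RNAi. With mCherry RNAi, CG6356 had 171, 179 and 175 CPM in TDP-43 brains and 232, 230.1 and 227 in control brains. It was highest in every control library with mCherry RNAi, with an interaction of 0.71 ± 0.11, adjusted p = 0.016 kept in 8 of 12 fits (up to 0.0645).

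**Figure D3:**
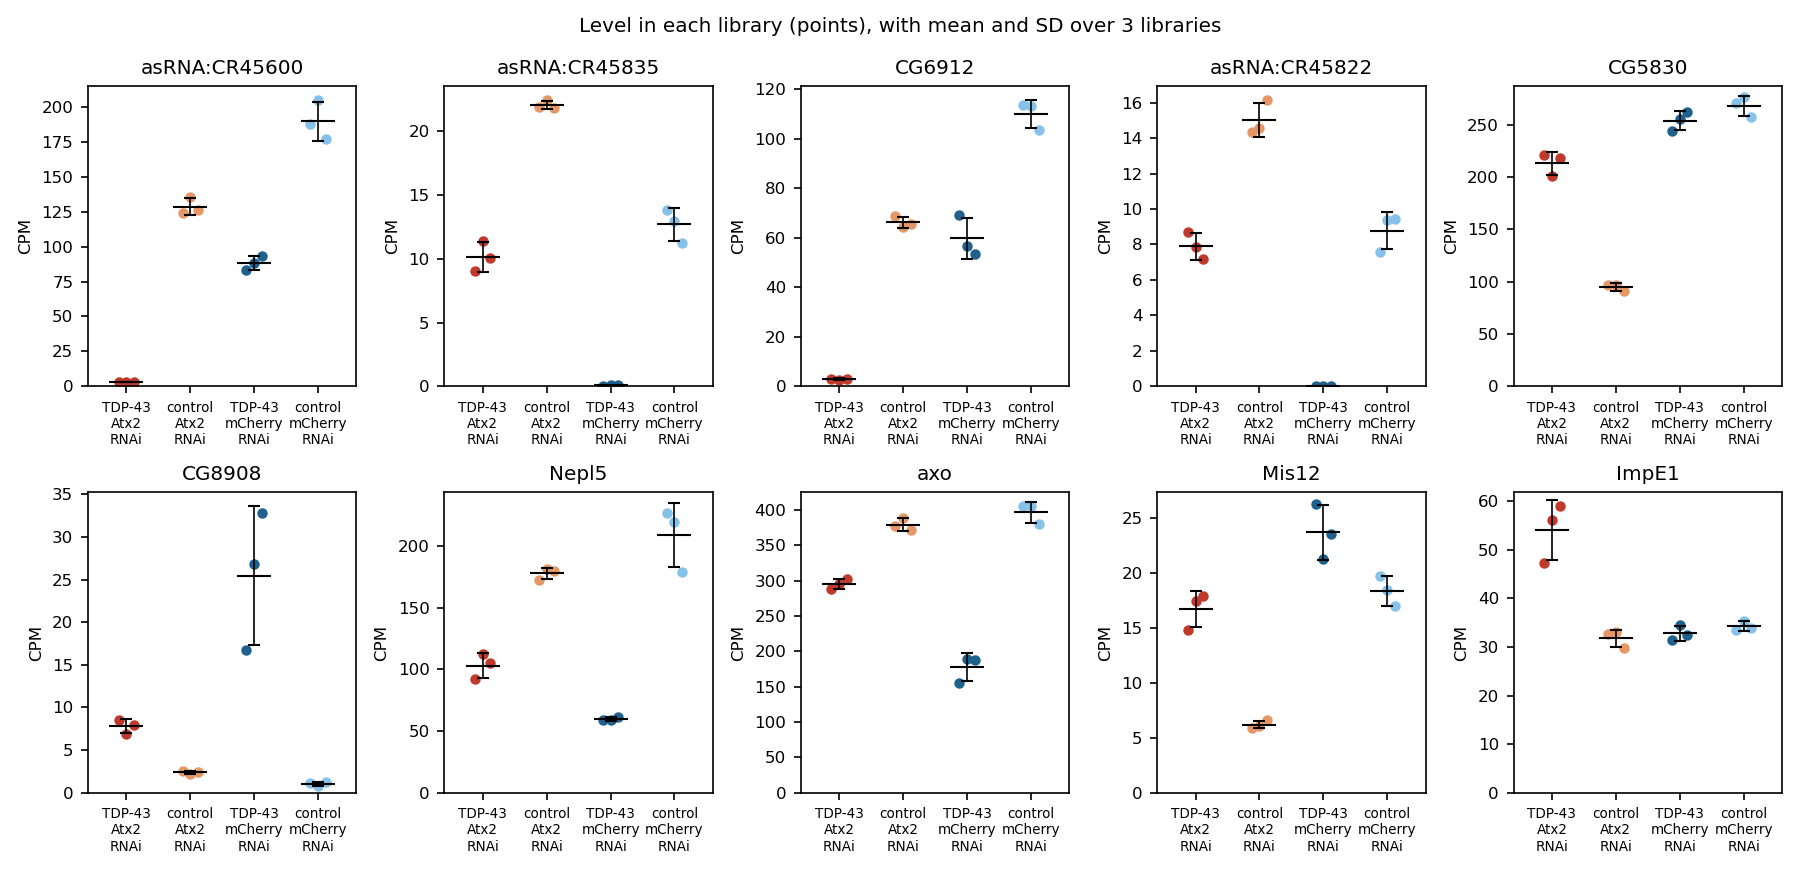
Each panel shows CPM (vertical axis, from 0) in the 3 libraries of each group for 1 of the 10 genes whose interaction call held with each library left out; points are libraries and bars the mean ± SD. asRNA:CR45600 and CG6912 are near 0 in TDP-43 with Atx2 RNAi, asRNA:CR45822 and asRNA:CR45835 near 0 in TDP-43 with mCherry RNAi, and CG5830 and Mis12 are lowest in control with Atx2 RNAi.

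A called change in opposite directions under the 2 hairpins was seen for 5 genes. TDP-43 raised repo and CG6356 with Atx2 RNAi and lowered them with mCherry RNAi, by 0.32 ± 0.07 and -0.39 ± 0.07 for CG6356. It lowered piwi, Dhod and RpS21 with Atx2 RNAi and raised them with mCherry RNAi. For piwi, a germline small-RNA factor at low level in these brains, the changes were -0.77 ± 0.21 and 1.31 ± 0.21. For Dhod, an enzyme of pyrimidine synthesis, they were -0.20 ± 0.06 and 0.22 ± 0.06, and for the ribosomal protein gene RpS21 -0.32 ± 0.10 and 0.35 ± 0.10. The interaction was called for repo, CG6356 and piwi (-2.09 ± 0.30, adjusted p = 0.0137), and not for Dhod (-0.42 ± 0.09, adjusted p = 0.0704) or RpS21 (-0.67 ± 0.15, adjusted p = 0.0852). These 5 were found by their values, and piwi, Dhod and RpS21 are outside the rule for named genes.

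Beyond single calls, the TDP-43 change was smaller with Atx2 RNAi for most genes with a called average TDP-43 effect. TDP-43 against control gave 2413 called genes with Atx2 RNAi (22.5% of those tested) and 4035 with mCherry RNAi (37.6%), and 1920 were called under both. The Atx2 hairpin against the mCherry hairpin gave 1508 genes with TDP-43 (14%) and 663 without it (6.17%), and 746 to 1679 and 292 to 802 with a library left out. A call under the mCherry hairpin alone is not a difference between the hairpins: of 2115 such genes 11 had a called interaction. So had 5 of the 493 called under the Atx2 hairpin alone, 30 of the 1920 called under both and 0 of those called under neither. Over all tested genes it was 46 of 10738 (0.428%). To compare sizes without choosing genes from either hairpin, the average of both TDP-43 changes was tested, which called 4792 genes (44.6%). Of these, 3391 (70.8%) had a smaller absolute TDP-43 change with Atx2 RNAi than with mCherry RNAi, 1704 of 2468 that were higher with TDP-43 (69.0%) and 1687 of 2324 that were lower (72.6%). The median absolute change of these 4792 genes was 0.305 with Atx2 RNAi and 0.41 with mCherry RNAi. Over all tested genes it was also smaller with Atx2 RNAi, at 0.177 against 0.240 with mCherry RNAi. How many of all tested genes had a smaller change was not counted. The 4792 genes share the same 12 libraries, so the share of 70.8% has no test of its own. It was 67.9% to 75.5% with each library left out. As given below, the median TDP-43 change varied more with exon length under mCherry RNAi (0.195 to -0.102) than under Atx2 RNAi (0.056 to 0.003). TDP-43 libraries with mCherry RNAi also differed most among themselves. The part of that spread in this share was not tested.

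The gene lists gave a broader view, although few of their members were called. Cytoplasmic ribosomal protein genes were nearly all on the negative side. Of 85 tested, 82 had a negative interaction, against 5782 of all 10738 genes tested. At an unadjusted p under 0.05, 57 were negative, against 6.98% of all genes, while edgeR called 0 and DESeq2 called 37. Their median interaction was -0.30, against -0.02 for all genes tested. RpL10Ab, a protein of the large subunit, had 318, 276 and 305 CPM in TDP-43 brains and 485, 394 and 413 in control brains with Atx2 RNAi. With mCherry RNAi, RpL10Ab had 343, 369 and 339 CPM in TDP-43 brains and 327, 308 and 363 in control brains. Its 3 control libraries with Atx2 RNAi were above the other 9, and its interaction was -0.60 ± 0.12, adjusted p = 0.0669. RpL5 had -0.42 ± 0.09, adjusted p = 0.0766. Over the list, the median TDP-43 change was -0.26 with Atx2 RNAi and 0.04 with mCherry RNAi, and the Atx2 hairpin went with a median of 0.00 with TDP-43 and 0.29 without it. Control brains with Atx2 RNAi were thus the group that was high, and among them replicate 1 the highest, with a list median of 0.36 log2 above the gene means, against 0.09 and 0.16 in replicates 2 and 3. Without that library the list median was -0.198, and over the 12 fits with a library left out it ran from -0.346 to -0.198. The 13 protein genes of the mitochondrial genome followed the same order, with 12 negative, 8 of them at an unadjusted p under 0.05, and a median of -0.30 (-0.344 to -0.214 with a library left out). Examples were mt:ND4 (-0.49 ± 0.13, adjusted p = 0.12) and mt:CoIII (-0.32 ± 0.11, adjusted p = 0.194), both subunits of the respiratory chain.

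Synapse and sleep genes had small positive medians, while the 10 nicotinic receptor genes had a median of -0.04, with 3 positive, and the 35 photoreceptor genes one of -0.25, with 14 positive. Of 43 synapse genes 37 had a positive interaction, 11 at an unadjusted p under 0.05 with 0 negative at that level, and the list median was 0.10. Over all tested genes 46.2% had a positive interaction, and 8.26% were positive and 6.98% negative at that level. In either direction, 25.6% of the synapse list and 23.7% of the sleep list passed it, against 15.2% of all tested genes. Nlg4, a neuroligin, had 155, 162 and 164 CPM in TDP-43 brains and 121, 131 and 133 in control brains with Atx2 RNAi. With mCherry RNAi, Nlg4 had 118, 124 and 122 CPM in TDP-43 brains and 122, 130.5 and 119 in control brains, so that the combination was highest (0.35 ± 0.07, adjusted p = 0.0621), and for Rbp, the RIM-binding protein of the active zone, the interaction was 0.31 ± 0.07, adjusted p = 0.0819. Across the sleep list 12 of 59 genes were positive and 2 negative at that level, with a median of 0.08. Here the acetylcholine receptor gene nAChRalpha3 had 349, 367 and 368 CPM in TDP-43 brains and 175, 196 and 183 in control brains with Atx2 RNAi. With mCherry RNAi, nAChRalpha3 had 493, 445 and 442 CPM in TDP-43 brains and 169.5, 181 and 181 in control brains. It rose with TDP-43 by 0.97 ± 0.06 with Atx2 RNAi and by 1.38 ± 0.06 with mCherry RNAi, and its interaction was not called (-0.41 ± 0.08, adjusted p = 0.0556). The dopamine receptor gene Dop2R had 0.26 ± 0.07, adjusted p = 0.104. None of the synapse or sleep genes was called by edgeR. DESeq2 called 8 positive and 0 negative synapse genes, and 7 positive and 1 negative sleep genes. Over all 10738 tested genes DESeq2 called 366 positive and 140 negative.

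These list medians moved with gene length. Over 10 equal bins of the tested genes by annotated exon length, the median interaction ran from -0.163 in the shortest bin (65 to 735 bases) to 0.097 in the longest (5724 to 71820 bases). Over the same range of length, the median TDP-43 change ran from 0.056 to 0.003 with Atx2 RNAi and from 0.195 to -0.102 with mCherry RNAi. An offset that removes each library's length trend, added after the data were seen, left -0.076 in the shortest and -0.037 in the longest bin. With it the synapse median was -0.005 and the sleep median -0.007. The ribosomal protein median was -0.22, with 42 genes negative at an unadjusted p under 0.05, and the mitochondrial genome median -0.23 with 7. With the offset 42 genes were called for the interaction, 16 positive and 26 negative, in place of 28 and 18, and 32 of them were among the 46. RNA quality is not stated in the sources used here, and its part in the length trend was not tested.

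**Figure D4:**
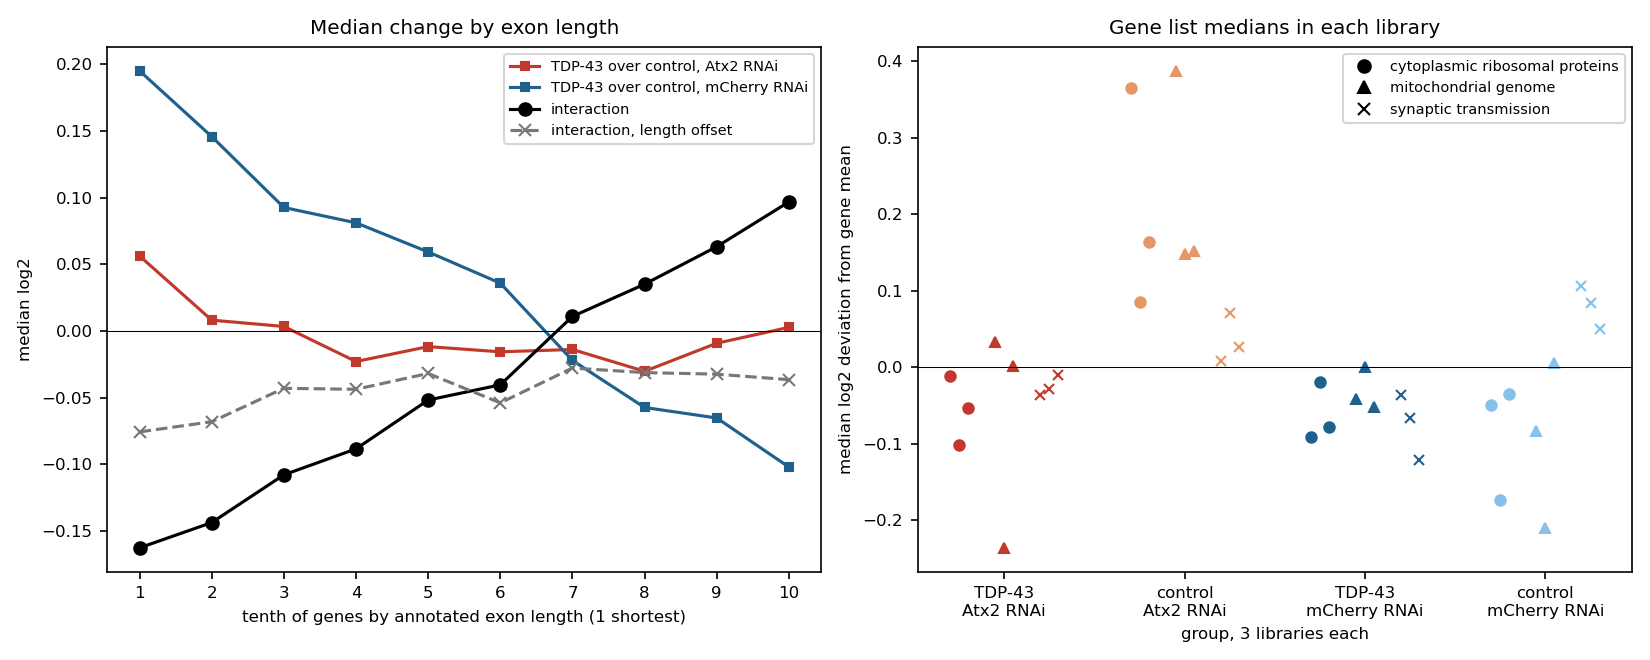
Left, median log2 change over 10 equal bins of the tested genes by exon length, for TDP-43 under each hairpin and for the interaction with and without the length offset; the interaction climbs from -0.163 to 0.097, and with the offset stays between -0.076 and -0.028. Right, median log2 deviation from the gene means over 3 gene lists in each library, with 3 libraries per group; ribosomal protein and mitochondrial genome lists are highest in control with Atx2 RNAi.

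The glia list held more calls than any other. Of the 28 glia genes tested, 3 were called, against 0.428% of all genes. All 3 were positive (axo, repo and Tsf1, which is also on the fat body list). At an unadjusted p under 0.05, 8 were positive and 3 negative, 39.3% of the list against 15.2% of all genes. The list median was 0.17, and 0.08 with the length offset. Members pointed both ways: alrm, an astrocyte gene, had -0.35 ± 0.14, adjusted p = 0.266, and the median TDP-43 change of the list was 0.05 with Atx2 RNAi and -0.14 with mCherry RNAi. The part of the lower summed glia markers of TDP-43 libraries in these calls was not tested. Of 24 UDP-glycosyltransferase genes, 2 were called and 8 were negative at an unadjusted p under 0.05 against 1 positive, and the median was -0.39 (-0.37 with the offset). Of 32 glutathione transferase genes, GstD2 was called, 7 were negative and 2 positive, and the median was -0.40. In 25 oxidative stress genes, 8 were negative at that level and 0 positive, with 0 calls and a median of -0.20. In either direction, 37.5% of the UDP-glycosyltransferase, 28.1% of the glutathione transferase and 32% of the oxidative stress list passed that level. Over all tested genes the share was 15.2%. Within TDP-43 brains with mCherry RNAi these 3 lists differed between replicates in the same order as the 17 fat body genes. In replicates 1, 2 and 3 the list medians, as log2 deviations from the gene means, were 0.21, 0.35 and 0.56 for UDP-glycosyltransferases and -0.04, 0.05 and 0.29 for glutathione transferases. They were -0.05, 0.12 and 0.25 for oxidative stress genes and -0.26, 0.54 and 0.76 for fat body genes. The called member GstD2 was lowest in replicate 2 of this group. Other lists rose in this order too, among them antimicrobial peptide, immune signalling, cytochrome P450 and lipid metabolism genes. Synapse and sleep genes did not. The part of fat body RNA in these list values was not tested. An example is Gss2, a glutathione synthetase gene, with 43.6, 43.5 and 45.2 CPM in TDP-43 brains and 44.2, 42.9 and 41.1 in control brains with Atx2 RNAi. With mCherry RNAi, Gss2 had 47.6, 57.2 and 52.2 CPM in TDP-43 brains and 38.3, 35.7 and 40.4 in control brains. The TDP-43 libraries with mCherry RNAi were highest, and the interaction was not called (-0.41 ± 0.10, adjusted p = 0.0965). Antimicrobial peptide genes had a median of -1.37 over 27 genes, the lowest of the lists with at least 10 tested members other than gut, but libraries within a group differed widely. AttC, an attacin, averaged 0.461 ± 0.424 CPM in TDP-43 brains and 0.735 ± 0.389 in control brains with Atx2 RNAi, and 8.11 ± 4.7 in TDP-43 brains and 1.29 ± 0.487 in control brains with mCherry RNAi (SD, n = 3 each), and its interaction was not called (-3.34 ± 1.00, adjusted p = 0.168). The median of the antimicrobial list ran from -2.31 without replicate 3 of control with mCherry RNAi to -0.671 without replicate 1 of control with Atx2 RNAi, so its size depends on single libraries.

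**Figure D5:**
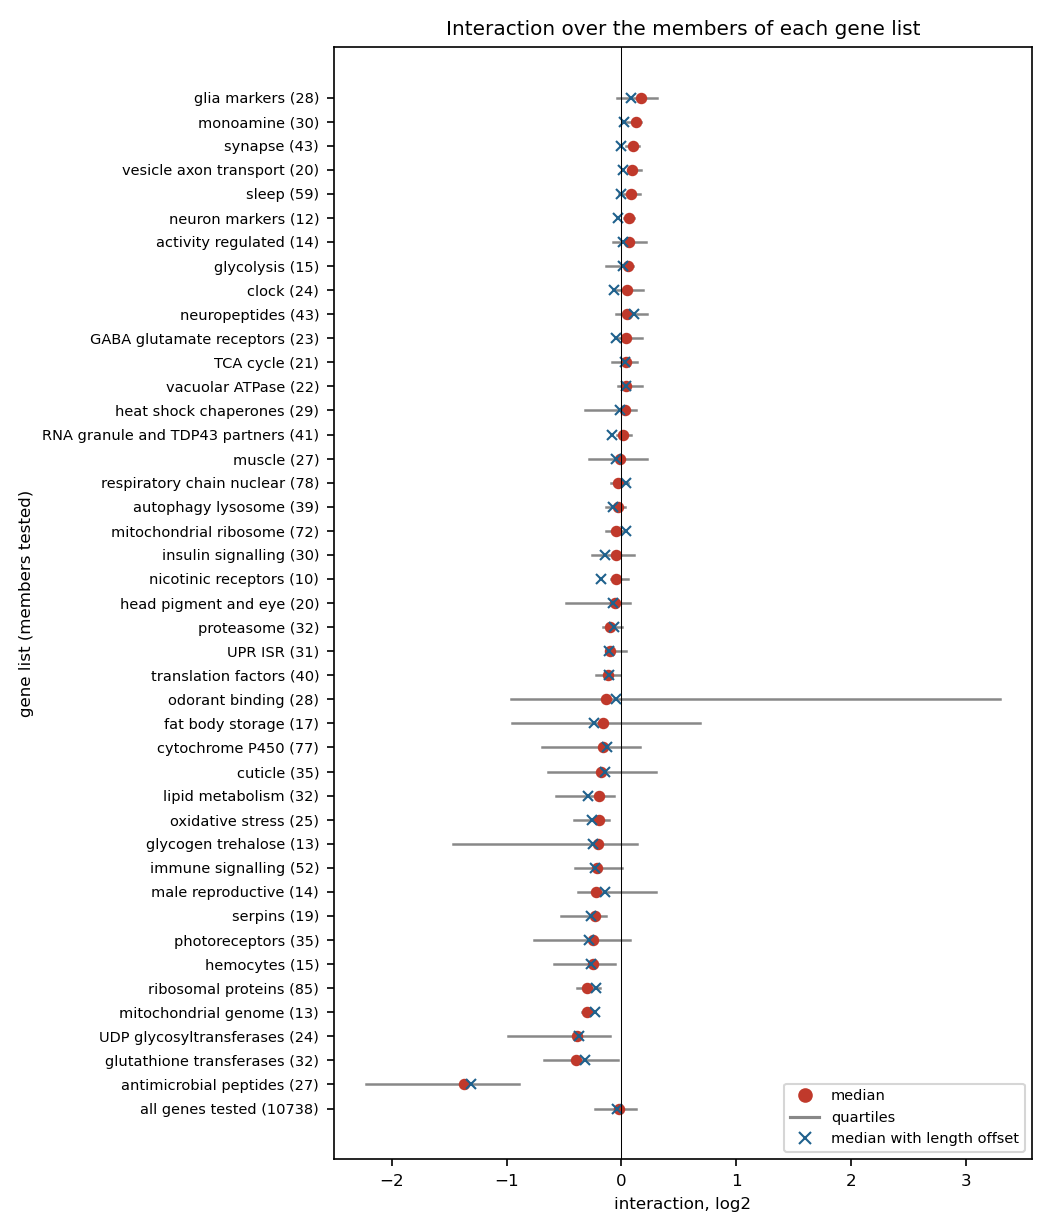
Each row is 1 of 42 gene lists with at least 10 tested members, or all genes tested (bottom); red points are median interaction log2, grey lines the quartiles and blue crosses the median with the length offset. Most medians lie near 0, with antimicrobial peptides lowest at -1.37 and glia markers highest at 0.17; 1 list (gut) with a lower quartile under -2.5 is not drawn.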

How the data were processed

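Total RNA of whole brains was sequenced in 12 libraries. The authors deposited 1 table of raw read counts per gene, whole numbers without normalization. Per the submitters' processing notes, Trim Galore, STAR 2.7.3a, SAMtools and DESeq2 were used, with build dm6; the assignment of reads to genes and its strand setting are not given in the sources used here. All 12 columns belong to a labelled library and 0 to none. Symbols were matched to FlyBase identifiers for 17495 of 17562 genes, 648 by an older symbol. Coordinates and exon overlaps come from the BDGP6 annotation, the assembly named dm6.

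From the counts, genes that pass edgeR's filter on the 4 groups were kept (6824 removed), libraries were scaled by TMM, and 1 mean per group was fitted over all 12 libraries with edgeR 4.0.16 (R 4.3.3) and robust quasi-likelihood dispersions, which left 8 residual degrees of freedom. The interaction and the 4 single comparisons are contrasts of that fit, with Benjamini-Hochberg adjustment over 10738 genes. CPM are normalized by TMM, with factors of 0.962 to 1.03. The scripts were tested on simulated data. Alternatives were DESeq2 1.42.0, limma 3.58.1 (voom, and linear CPM), other scalings and filters, a replicate block and each library left out; a length offset and DESeq2 without independent filtering were added after the data were seen. No 2 libraries agreed within sampling noise.

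Members, gene lists, markers and tests were chosen with earlier results of these data known. Named genes are, among called genes with at least 5 CPM in the highest group mean, the 12 largest rises and falls, the 8 smallest adjusted p and up to 4 per list, with Atx2, TBPH, w, v and y always given and 2 members of a list without a call allowed; 1 called gene under this rule is not reported here. Where each library of a group holds 3 counts or fewer, no fold is given. Of 47 lists, those not described had 0 called genes or only genes named above. Depth limits the precision of low genes, and counting floors cover counting error only.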

Additional observations from a re-analysis of the deposited data

Results flagged for a closer look

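The TDP-43 change differed between the hairpins, by the test of the difference itself, for 46 genes, and 26 of these are named here. For asRNA:CR45822 (adjusted p = 1.39e-07) and asRNA:CR45835 (adjusted p = 4.15e-08) no fold is given, since TDP-43 libraries with mCherry RNAi were at or under 3 counts. With a library left out, the antisense gene asRNA:CR45600 (-4.34) and its neighbour CG6912 (-3.69) ran from -4.40 to -4.27 and from -3.75 to -3.56.

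Among positive interactions that held with each library left out, CG5830 had 1.25, Mis12 1.06, Nepl5 1.02, ImpE1 0.83 and axo 0.80, and among negative ones CG8908 had -2.88. The positive calls of asRNA:CR44291 (2.89) and repo (0.60) were weakest without replicate 3 of control with Atx2 RNAi. Those of CG6356 (0.71), Tsf1 (0.69), CG12177 (0.69) and Hsp67Ba (0.45) were weakest without replicate 2 of TDP-43 with Atx2 RNAi, and that of bdl (0.67) without replicate 3 of TDP-43 with Atx2 RNAi.

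Negative interactions were found for Gld (-2.57), CG7054 (-1.30), Ugt49C1 (-1.23), CG11425 (-1.22) and Archease (-1.004), each with its highest adjusted p without replicate 2 of TDP-43 with Atx2 RNAi. CG3376 (-1.11) and Tsp42Ed (-1.14) were weakest without replicate 3 of TDP-43 with Atx2 RNAi, CG16743 (-1.45) without replicate 2 of control with mCherry RNAi and Ugt35B1 (-0.44) without replicate 3 of control with Atx2 RNAi. For the calls lost in 4 or fewer such fits, Gld, CG12177 and Archease were lost without replicates 2 or 3 of TDP-43 with Atx2 RNAi or replicate 2 of control with mCherry RNAi, with adjusted p-values of 0.0580 to 0.0659. CG6356 was lost without the same 3 libraries or replicate 1 of control with mCherry RNAi (0.0524 to 0.0645), and CG7054 without the same 3 or replicate 1 of control with Atx2 RNAi (0.0529 to 0.0659).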

How the results depend on the processing

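The count of 46 interaction calls was 40 to 49 under other scalings and count filters and 39 without robust shrinkage, 33 with limma-voom and 42 with the length offset. It was 506 with DESeq2's Wald test, whose independent filtering left 5631 genes, 13 of the 46 among them, without an adjusted p, and 426 with DESeq2 adjusted over all 10738 genes, including all 46. It was 102 with limma on linear CPM and 10 to 74 with a library left out. Whether replicate numbers pair the samples was checked: 8 of 18 same-numbered pairs correlated over 0.1 and 5 libraries correlated best with their own number, so the numbers were not taken to pair all 12. The 3 such pairs of TDP-43 with Atx2 RNAi correlated at 0.14 to 0.40 with control with Atx2 RNAi and at 0.19 to 0.62 with TDP-43 with mCherry RNAi, while those of control with mCherry RNAi with the other groups ran from -0.33 to 0.34. A replicate block gave 138 calls, including all 46. The cause of these differences was not tested. Among genes with a called average TDP-43 effect, the share whose change was smaller with Atx2 RNAi was 67.9% to 75.5% with a library left out. TDP-43 against control gave 1636 to 2595 calls with Atx2 RNAi and 3194 to 4205 with mCherry RNAi, and the Atx2 hairpin 746 to 1679 with TDP-43 and 292 to 802 without it. On linear CPM the direction turned for asRNA:CR44291 (-2.90 CPM) and Ugt35B1 (82.2 CPM), and 30 of the 46 were called. With 3 libraries per group, leaving 1 out lowers the degrees of freedom, and low depth limits genes such as GstD2, with 15 to 37 counts per library outside TDP-43 with mCherry RNAi.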

Other observations

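Several lists that are central to sleep and to TDP-43 held no gene called by edgeR, and their members are given as values. DESeq2 called 4 positive and 1 negative of the clock genes, and 0 neuropeptide genes. Of the genes for RNA granules and partners of TDP-43 it called 4 positive and 0 negative. Over all 10738 tested genes DESeq2 called 366 positive and 140 negative. Of 24 clock genes 5 were positive and 2 negative at an unadjusted p under 0.05, with a list median of 0.05 (-0.06 with the length offset). That was 29.2% of the clock list in either direction, against 15.2% of all tested genes. The clock gene tim had 205, 244 and 219 CPM in TDP-43 brains and 77.4, 84.7 and 83 in control brains with Atx2 RNAi. With mCherry RNAi, tim had 142, 191 and 193 CPM in TDP-43 brains and 108, 83.9 and 86.4 in control brains. TDP-43 libraries were above their controls under both hairpins (1.45 ± 0.13 with Atx2 RNAi and 0.92 ± 0.13 with mCherry RNAi), and the interaction was 0.53 ± 0.18, adjusted p = 0.214. Its partner per was 61.4 ± 7.9 CPM in TDP-43 brains with Atx2 RNAi, 35.8 ± 3.51 in control brains with Atx2 RNAi, 44.5 ± 6.26 in TDP-43 brains with mCherry RNAi and 38.8 ± 4.33 in control brains with mCherry RNAi (SD, n = 3 each), with an interaction of 0.58 ± 0.18, adjusted p = 0.168. Of 41 genes for RNA granules and partners of TDP-43, 7 were positive and 0 negative at an unadjusted p under 0.05, and the median was 0.01 (-0.08 with the offset). Examples were tral, a granule protein (0.20 ± 0.05, adjusted p = 0.102), and Fmr1, the fly FMRP (0.25 ± 0.07, adjusted p = 0.141). Of 43 neuropeptide genes 6 were positive and 0 negative, with a median of 0.05 (0.11 with the offset). These shares, 17.1% of the granule list and 14.0% of the neuropeptide list in either direction, are near the 15.2% of all tested genes.

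By chromosome arm, calls made up 0.645% of the tested genes on 3R (17 genes), 0.484% on 3L (10), 0.369% on 2L (7), 0.32% on 2R (7) and 0.279% on X (5). Besides the 2 antisense pairs, called neighbours within 50000 bases were CG31687 and CG31688, 2319 bases apart on 2L, and piwi and CG16743, 8796 bases apart on 2L, and they were singled out after their values were seen. CG31688 had 559, 585 and 626 CPM in TDP-43 brains and 209, 214 and 209.6 in control brains with Atx2 RNAi. With mCherry RNAi, CG31688 had 784, 796 and 818 CPM in TDP-43 brains and 210.3, 224 and 218 in control brains, with a TDP-43 rise of 1.48 ± 0.05 with Atx2 RNAi and 1.88 ± 0.05 with mCherry RNAi (interaction -0.39 ± 0.07, adjusted p = 0.0248). CG31687 had the same order, with rises of 1.42 ± 0.05 and 1.95 ± 0.06 (interaction -0.53 ± 0.08, adjusted p = 0.0137), and these calls were kept in 3 and 9 of 12 fits with a library left out.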
